A study of Mus musculus with 6 samples.

Results

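The complement genes measured here are those of C1q (C1qa, C1qb and C1qc), of locally made components (C3, C4b and Cfb) and of membrane regulators (Cd55, Cd59a and Cr1l). They were examined in isolated kidney glomeruli of 3 mice without dendrin and of 3 littermate controls. The probe sets were chosen by annotation alone, as those that the array annotation assigns to exactly 1 of these 9 genes. This gave 14 of the 45101 probe sets of the array, and they represent 7 of the 9 genes. C1q has 5 of them, Cfb has 1 and the membrane regulators have 8. C3 is paired with no probe set in the annotation used here, and C4b only with 1 probe set that it shares with C4a, so neither could be reported on its own.

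Complement is a cascade of plasma proteins that tags microbes, immune complexes and dying cells. C1q starts its classical pathway, C4b and C3 are cleaved in turn and attach to the target, and factor B carries the amplification loop of the alternative pathway. Host cells hold membrane proteins that stop the cascade on their own surface. C1q is made mainly by macrophages and related myeloid cells, whereas factor B and C3 are also made by resident cells of the kidney, and deposits of complement are a well known feature of glomerular disease.

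The knockout mice lack dendrin in all cells, because its coding sequence was replaced by a cassette with eGFP and a neomycin resistance gene in embryonic stem cells. The control mice were littermates labelled as wild type. All 6 mice were 13 months old, and the labels name no treatment for either group. The labels give the genetic background as 129S6SvEv/C57BL6, which in the methods is the origin of the embryonic stem cells, and the methods state that the line was then backcrossed to C57BL/6. Their sex was not given. Each of the 6 Affymetrix arrays carried the glomerular RNA of 1 mouse, and values are log2 intensities after GCRMA, the authors' background correction and normalization. Probe sets with a mean under log2 4 over the 6 arrays are called dim, and 19619 probe sets were not dim. Dendrin is encoded on chromosome 15, which carries 0 of the 9 complement genes. The value of Ddn was 3.80, 3.81 and 3.80 (log2) in knockout and 12.22, 12.81 and 12.31 in control glomeruli, so that each array matched its label.

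The array of control 2 stood apart from the other 5 in markers of several cell types. Of 11 podocyte markers, 8 were measured and 8 of these were not dim. Their summed unlogged level was 99999 to 106646 in knockout and 91886 to 107586 in control glomeruli. Control 2 had the highest of these values and lay close to the knockout mice, with control 1 at 91886 and control 3 at 92056. Of 25 markers of macrophages and other myeloid cells, 24 were measured and 22 were not dim. Cd163 and Trem2 were at the floor of the scale on every array. The summed level of the myeloid markers was 46327 to 81566 in knockout and 19138 to 72088 in control glomeruli, and the lowest of these values was that of control 2. In contrast, the summed level of 14 markers of the tubule from the loop to the collecting duct was 4600 to 5624 in knockout and 4909 to 21902 in control glomeruli, with the highest value in control 2. In RNA of whole glomeruli, fewer cells of a type and less RNA per cell cannot be told apart. Results are therefore given with all 6 arrays and without control 2, an array singled out after its values had been seen.

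None of the complement probe sets passed the test of knockout against control glomeruli across all probe sets. With limma, a moderated linear model, 0 of the 14 probe sets passed an adjusted p of 0.05 (Benjamini-Hochberg over all probe sets), against 0.00222% of all probe sets. At a fold over 1.5 in either direction with an unadjusted p under 0.05, the count was also 0 of 14, against 0.18% of all probe sets. At an unadjusted p under 0.05 alone it was 0 of 14 with limma and 0 of 14 with SAM (Significance Analysis of Microarrays), against 3.63% of all probe sets with limma. Knockout and control values overlapped for all 12 probe sets that were not dim. Of all probe sets of the array that were not dim, 13.7% did not overlap. The 12 come from only 7 genes, too few for a count of 0 to stand apart from that share. An exact permutation test of 1 probe set cannot reach a two-sided p under 0.1 in a design of this size.

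C1q RNA was far lower in 1 control mouse than in the other 5 mice. C1qa, which encodes the A chain of C1q, had values of 11.03, 10.43 and 11.11 (log2) in knockout and 10.68, 7.49 and 11.41 in control glomeruli. The highest and the lowest of these values both belonged to control mice. The mean was 10.86 ± 0.37 in knockout and 9.86 ± 2.09 in control glomeruli (SD, n = 3 each), so that the difference on the log2 scale was 0.999 (standard error 1.18, limma adjusted p = 1). The 95% interval of the difference ran from -2.18 to 4.18. C1qc, the gene of the C chain, was at 10.51, 9.87 and 10.46 in knockout and 10.01, 6.35 and 10.78 in control glomeruli. Its difference was 1.24 (standard error 1.33, limma adjusted p = 1). The low value was again that of control 2, and the other control mice lay on either side of the knockout mean of 10.28.

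C1qb, the gene of the B chain, is represented by 3 probe sets. The brightest, 1437726_x_at, was at 12.46, 11.77 and 12.55 in knockout and 12.43, 9.18 and 12.46 in control glomeruli. The ending _x_at means that some of its probes may also bind other transcripts. The probe set 1417063_at, which has no such ending, was at 11.97, 11.45 and 11.95 in knockout and 11.61, 8.52 and 12.27 in control glomeruli. Once each was centred on its own mean, the 3 probe sets of C1qb were never further apart than 0.33 (log2) on any array. Their differences were 0.90, 0.99 and 0.81, with standard errors of 1.07, 1.13 and 1.03. All 5 probe sets of C1q were thus higher in knockout by fitted values of 0.81 to 1.24, with a median of 0.99, but each by less than its own standard error. The median over all probe sets that were not dim was 0.015.

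**Figure D1:**
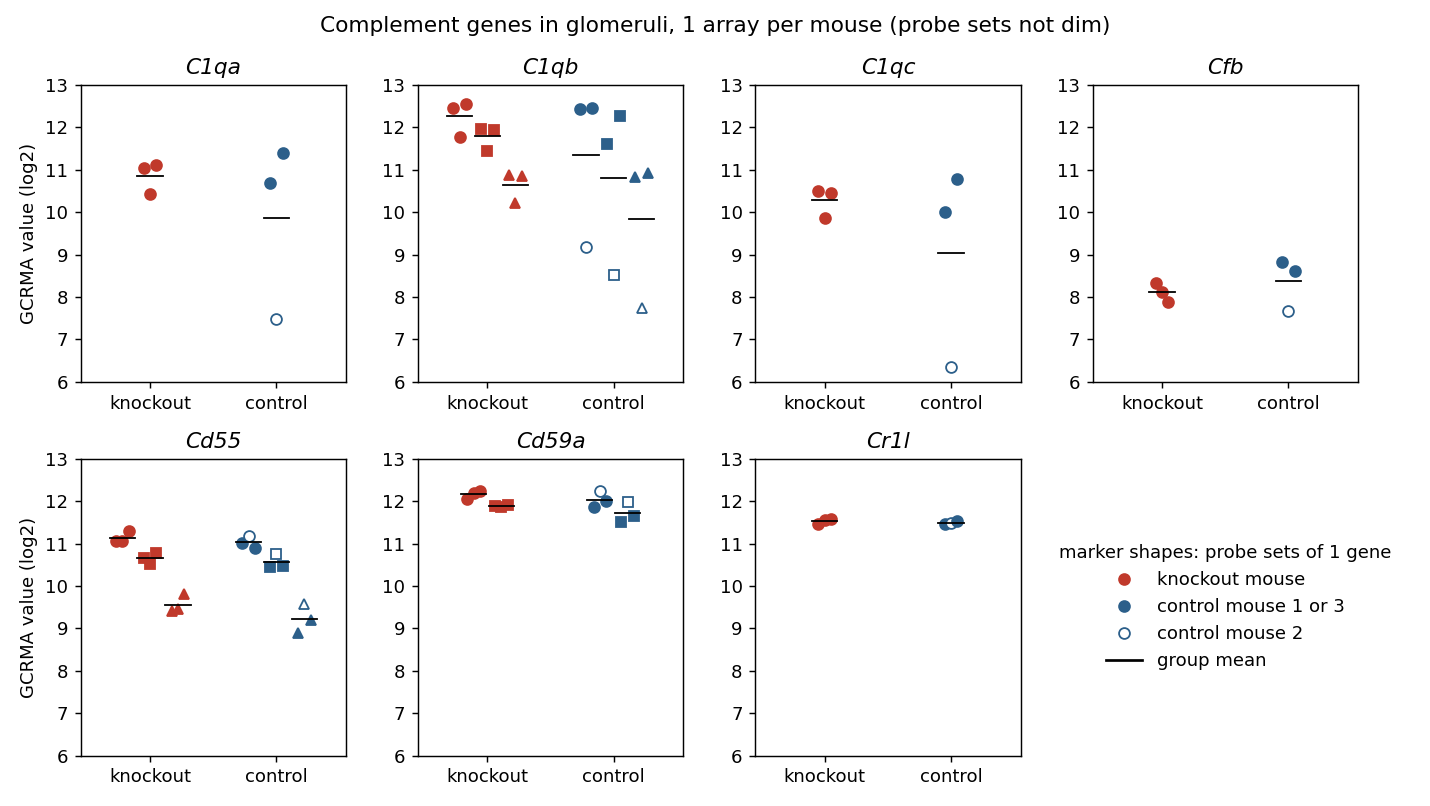
GCRMA values (log2, vertical axis) of the 12 complement probe sets that were not dim, in knockout and control glomeruli, 1 panel per gene. Each point is 1 mouse, bars are group means, marker shapes separate the probe sets of a gene, and open markers are control 2, which lies between 6.35 and 9.18 for C1q, is within the range of the other mice for Cd55 and Cr1l, and is the highest on 1 of the 2 probe sets of Cd59a.

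The sign of the C1q difference rested on control 2. Without this array the differences were -0.19 for C1qa, -0.19, -0.15 and -0.24 for the probe sets of C1qb and -0.11 for C1qc, and the smallest of their unadjusted p values from limma was 0.438. The median of the 5 probe sets was then -0.19, against 0.87 to 1.72 when any of the other arrays was left out. C1qa was 10.9-fold lower in control 2 than the mean of the other 5 mice, C1qb 7.99-fold to 10.1-fold lower by probe set and C1qc 15.8-fold lower. Of the 19619 probe sets that were not dim, only 14 fell further in control 2 than C1qc, and 54 fell further than the least affected C1qb probe set. Among the other 5 mice, C1qa ranged from 10.43 to 11.41, a span exceeded by 4.14% of the probe sets that were not dim. C1q expression thus varied among the remaining mice as well, with knockout 2 the lowest of them on all 5 probe sets and control 3 the highest for C1qa, C1qc and 2 of the 3 probe sets of C1qb.

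The 3 C1q genes moved together from mouse to mouse. The mean of the 3, each taken from its brightest probe set and centred on its own average, was at 0.72, 0.081 and 0.76 (log2) in knockout and at 0.43, -2.94 and 0.94 in control glomeruli. No gene departed from this shared profile by more than 0.38 on any array, while the profile itself spanned 3.87. C1qb, C1qc and C1qa follow one another directly on chromosome 4. The 250 bases before the annotated start of C1qb and of C1qc are shown because these genes varied together across the mice. Sequences are from RefSeq (GRCm38.p6), both on the minus strand, at chr4:136886201-136886450 for C1qb and chr4:136892915-136893164 for C1qc. Capitals mark matches to AGGAAG on either strand, a core that factors of the ETS family bind, among them the myeloid factor PU.1.
C1qb: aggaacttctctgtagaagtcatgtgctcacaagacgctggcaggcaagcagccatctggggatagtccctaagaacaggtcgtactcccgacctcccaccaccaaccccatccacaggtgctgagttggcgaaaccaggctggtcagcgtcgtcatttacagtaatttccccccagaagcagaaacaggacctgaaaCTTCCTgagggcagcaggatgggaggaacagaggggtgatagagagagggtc
C1qc: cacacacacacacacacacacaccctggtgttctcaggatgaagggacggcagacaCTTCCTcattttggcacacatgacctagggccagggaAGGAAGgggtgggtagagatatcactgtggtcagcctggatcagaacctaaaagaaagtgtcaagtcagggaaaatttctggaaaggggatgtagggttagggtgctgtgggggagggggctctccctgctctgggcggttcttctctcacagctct

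The window of C1qb held 1 match, starting 52 bases before the gene's start, and that of C1qc held 2, at 194 and 157 bases before it. Of all 32851 such windows in the table, 29.5% held at least 1 match. The windows of C3, Cd55, Cd59a and Cr1l held 0. The GAS element TTCNNNGAA, a site for interferon-activated STAT factors, was found in 0 of these 6 windows and in 7.02% of all windows. The interferon response motif, taken as a pair of GAAA blocks set 2 bases apart, was found once, in the window of Cd59a, and in 2.98% of all windows. The TATA box letters TATAAA were found in 0 of the 6 and in 12.4% of all windows. All motifs were searched on both strands. The motifs were chosen after the C1q windows had been read, and a match describes letters only.

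Genes whose values ran most like those of C1q were sought among 10376 other genes, by the root mean square difference between centred values over the 6 arrays. The nearest was Cd86, a costimulatory molecule of antigen-presenting cells, with a difference of 0.137 (log2). It was followed by Pilrb1, an activating receptor of myeloid cells (0.181), and by Slc40a1, the iron exporter ferroportin (0.182). The fourth was Cfp, the gene of properdin, which stabilises the alternative pathway convertase (0.188). The adaptor gene Lcp2 (0.205), the endosomal receptor gene Tlr13 (0.230), Slamf8 (0.235) and Adgre1, which encodes a surface antigen of mouse macrophages (0.239), completed the first 8. All of these were lowest in control 2, where Slamf8 was at the floor.

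Markers of myeloid cells shifted in the same arrays as C1q, but by less. In control 2, the median of the 22 myeloid markers that were not dim was -2.11 (log2) relative to the other 5 mice, against -3.33 for the 5 probe sets of C1q. Of these 22 markers, 3 fell by more than the least affected C1q probe set (-3.00), namely Adgre1, Ms4a6d and Ms4a7. Cd14, Cd53 and the mannose receptor gene Mrc1 fell by less than 1. Mrc1 was at 11.43, 11.44 and 11.31 in knockout and 11.49, 11.11 and 11.40 in control glomeruli. The genes of class II antigen presentation had a median of -1.39 in control 2. All 22 myeloid markers were higher in knockout with all 6 arrays (median 0.49), and 17 of 22 were lower without control 2 (median -0.20). The part of myeloid cells in the C1q values was not tested.

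**Figure D2:**
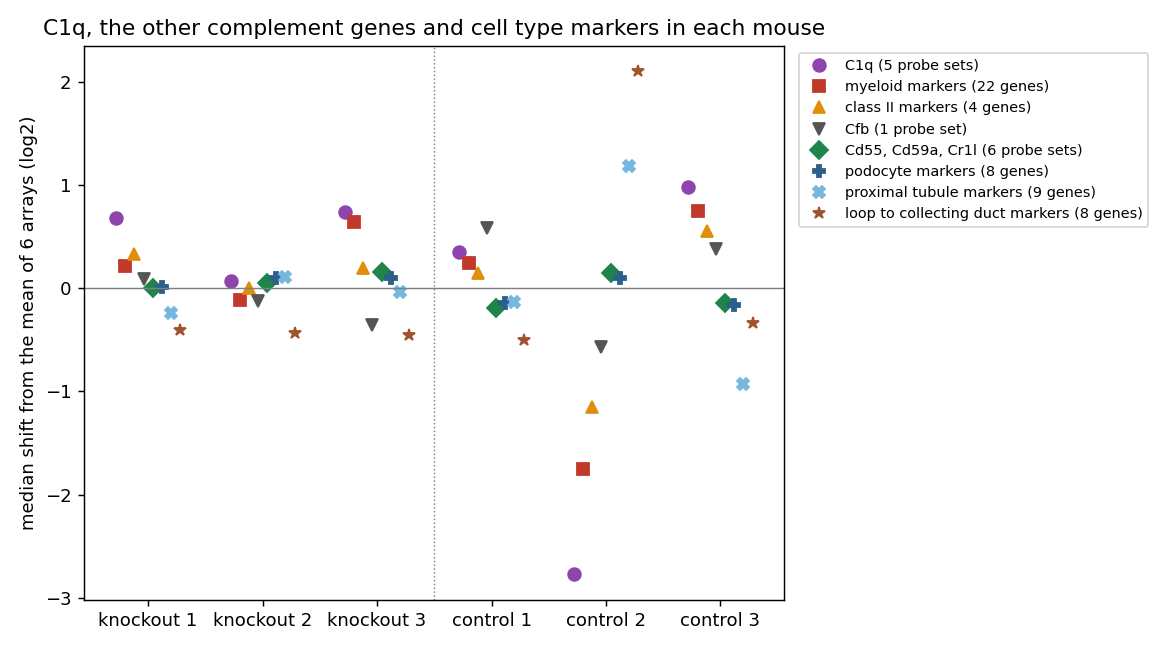
Median shift of each gene group in each mouse, relative to the mean of the 6 arrays (log2, vertical axis), for knockout mice on the left and control mice on the right. C1q stood at -2.77 in control 2, below the myeloid markers at -1.76, while the markers of the loop to collecting duct stood at 2.10 and Cd55, Cd59a and Cr1l together at 0.15.

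Of the 7 genes that the 14 probe sets represent, Cfb was the only 1 whose fitted value was lower in knockout glomeruli with all 6 arrays. Cfb encodes factor B, the protease of the alternative pathway convertase. It was at 8.34, 8.12 and 7.89 (log2) in knockout and at 8.83, 7.67 and 8.63 in control glomeruli. The knockout values lay between the low value of control 2 and the high values of the other control mice. The mean was 8.12 ± 0.22 in knockout and 8.37 ± 0.62 in control glomeruli (SD, n = 3 each), so that the difference was -0.26 (standard error 0.36, limma adjusted p = 1). Without control 2, it was -0.61 (standard error 0.17), and all 3 knockout values lay under both remaining control values. Control 2 was the only control mouse below the knockout mice, so leaving it out was bound to remove the overlap and to enlarge the difference. The unadjusted p was then 0.0338 and the adjusted p 0.778 (limma), so that Cfb passed the fold and p criterion in that comparison. It was the only 1 of the 14 probe sets to do so, where 0.31% of all probe sets passed, and 0 of the 14 passed an adjusted p of 0.05, where 0.0155% of all did. The difference was -0.031 without control 1, -0.13 without control 3, -0.14 without knockout 3 and -0.37 without knockout 1.

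Like C1q, Cfb was lowest in control 2, but it fell by much less there. In control 2, Cfb was 1.61-fold lower than in the other 5 mice, where C1qc was 15.8-fold lower. Of the genes that were not dim, those nearest to Cfb in profile were Accs (root mean square difference 0.0979), Nova2 (0.166), the N-cadherin gene Cdh2 (0.174), Hivep3 (0.181) and Cp, the gene of the copper-binding ferroxidase ceruloplasmin (0.186). Gsto1 (0.191), the kinase gene Camk2d (0.199) and the xanthine dehydrogenase gene Xdh (0.200) completed the first 8. Cp was at 11.49, 11.22 and 10.92 in knockout and 11.55, 10.49 and 11.29 in control glomeruli. The macrophage genes listed for C1q were absent from the 8 nearest to Cfb. The measure is not scaled for the size of the variation, so genes that vary as widely as C1q could hardly be near Cfb. Their absence therefore does not show a different pattern.

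Of the 8 probe sets of the membrane regulators, 6 were not dim, and their fitted differences between the groups were at most 0.34 (log2). Cd55 encodes decay-accelerating factor, which takes apart the convertases. Its brightest probe set, 1418762_at, was at 11.06, 11.06 and 11.30 in knockout and 11.004, 11.19 and 10.90 in control glomeruli. The difference was 0.11, with a 95% interval of -0.20 to 0.41. A dimmer probe set, 1443906_at, had the largest difference of the class and varied most between mice, over a range of 0.91 (log2) that 8.32% of the probe sets that were not dim exceeded. It was at 9.42, 9.47 and 9.81 in knockout and 8.89, 9.57 and 9.21 in control glomeruli, which gave 0.34 with a standard error of 0.22 (limma, adjusted p = 1). The third probe set, 1460242_at, differed by 0.091 with a standard error of 0.12. Centred on their means, the 3 probe sets of Cd55 were up to 0.42 apart on an array. A further probe set that Cd55 shares with Cd55b was at the floor on all arrays.

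Cd59a encodes the GPI-anchored inhibitor of the membrane attack complex. It was at 12.05, 12.18 and 12.24 in knockout and 11.86, 12.24 and 11.99 in control glomeruli on its brighter probe set, 1418710_at. The difference was 0.13, with a 95% interval of -0.19 to 0.45. The other probe set, 1429830_a_at, was at 11.88, 11.85 and 11.91 in knockout and at 11.51, 11.99 and 11.65 in control glomeruli, a difference of 0.17 (standard error 0.14, limma adjusted p = 1). Control 2 was within the range of the knockout mice on the first of these probe sets and above all of them on the second, and control 1 and control 3 lay below all knockout mice. Cr1l encodes Crry, the rodent membrane regulator that acts on C3 and C4 convertases. It was at 11.46, 11.56 and 11.59 in knockout and at 11.47, 11.48 and 11.52 in control glomeruli. Its difference of 0.047 had a 95% interval of -0.062 to 0.16, the narrowest interval among the complement probe sets that were not dim. The remaining probe sets of Cr1l were dim. One stood at 3.44 on every array, and the other at 2.21 on each.

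Of the 6 membrane regulator probe sets that were not dim, which come from 3 genes, 6 were higher in knockout by fitted values of 0.047 to 0.34. So were 10769 of all 19619 probe sets that were not dim. The median of the 6 was 0.12, against 0.015 for all probe sets that were not dim. Without control 2 the median was 0.21, and all 3 probe sets of Cd55 and the 2 of Cd59a were free of overlap between the groups. On each of these probe sets, control 2 was the only control mouse that did not lie below all knockout mice. With Cfb, these made 6 of the 12 complement probe sets that were not dim, from 3 genes, where 32.1% of all probe sets that were not dim did not overlap in that comparison. The largest fold among these 5 was that of 1443906_at, 0.51 on the log2 scale (standard error 0.19, limma adjusted p = 0.926). The smallest unadjusted p was that of 1429830_a_at for Cd59a (difference 0.30, unadjusted p = 0.0091, limma adjusted p = 0.633). The 8 podocyte markers also had higher fitted values in knockout. Their median difference was 0.15 with all 6 arrays and 0.25 without control 2, and 7 of 8 did not overlap in that comparison. Of 10 markers of glomerular endothelium, 9 had lower fitted values in knockout, with a median of -0.13 with all 6 arrays and -0.15 without control 2. With all 6 arrays, 5 of these 10 had an unadjusted p under 0.05 with limma, as had 1593 of the 19619 probe sets that were not dim. The groups did not overlap for 6, against 13.7% of the probe sets that were not dim, and 0 passed an adjusted p of 0.05. Both counts include Sost, the 1 marker that was higher in knockout (difference 0.70, limma unadjusted p = 0.0061). Sost was also the only 1 of the 10 past the fold and p criterion. The part of podocyte and endothelial RNA in the values of Cd55 and Cd59a was not tested.

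**Figure D3:**
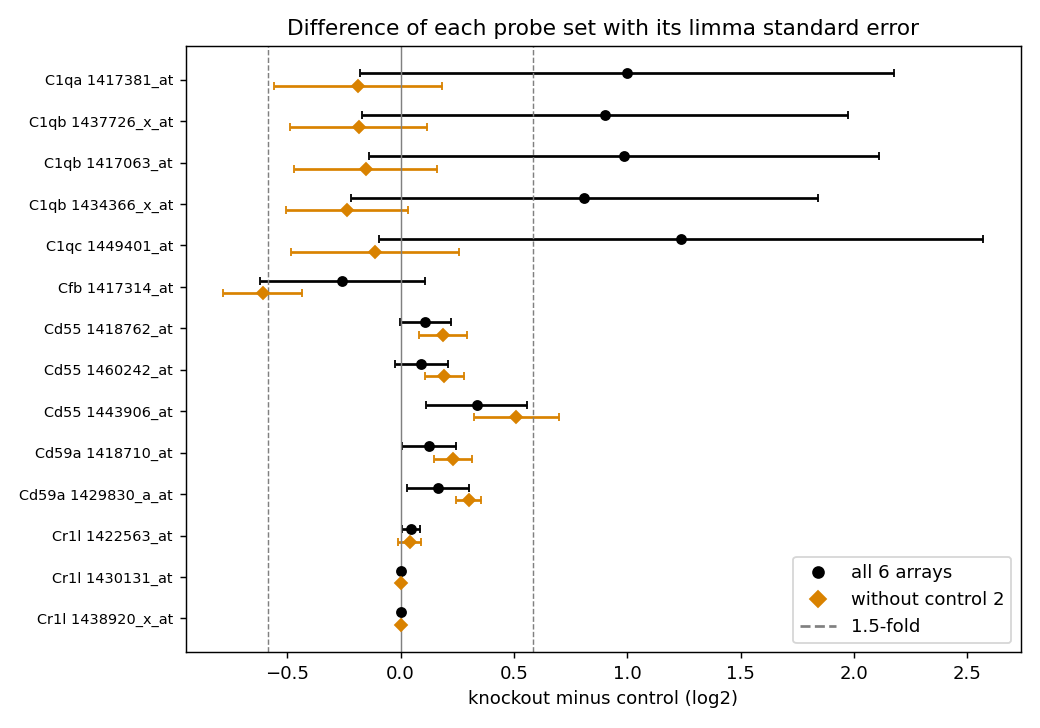
Difference between knockout and control glomeruli (log2, horizontal axis) for each of the 14 complement probe sets, with its limma standard error as bars. Black points use all 6 arrays and orange diamonds leave out control 2, and dashed lines mark a 1.5-fold difference. The 5 C1q points change from 0.81 to 1.24 with all arrays to values between -0.24 and -0.11 without control 2.

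Other genes of the complement system were taken from a list of 49 symbols, of which 39 had a probe set of their own and 13 were not dim. None of the 39 passed an adjusted p of 0.05 or the fold and p criterion with limma, against 0.00222% and 0.18% of all probe sets. An unadjusted p under 0.05 with limma was found for 0, against 3.63% of all probe sets. Of the 39, 12 differed by 0 between the groups and could not be called. Of the 13, 8 were higher and 5 lower in knockout by fitted values, with a median of 0.11. Without control 2, 3 were higher and 10 lower with a median of -0.14. Of the 13, 2 (Clu and C1s1) then had an unadjusted p under 0.05 with limma. So had 2440 of the 19619 probe sets that were not dim. The 6 measured genes of the terminal pathway, which builds the membrane attack complex, were all dim, as were the mannose-binding lectin genes Mbl1 and Mbl2 and the factor I gene Cfi. C1ra and C1s1, which encode the proteases of the C1 complex, were not dim and differed by -0.044 (standard error 0.15) and -0.12 (standard error 0.075). C1s1 was at 10.48, 10.54 and 10.41 in knockout and 10.65, 10.46 and 10.68 in control glomeruli.

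The largest fitted rises of the list were those of genes that were low in control 2. Vsig4, which encodes a complement receptor of tissue macrophages, was at 7.25, 4.06 and 7.23 in knockout and 4.06, 2.57 and 6.21 in control glomeruli. Its difference of 1.90 had a standard error of 1.44. Fcna, the gene of ficolin A, a lectin pathway recognition protein that macrophages make in the mouse, was at 8.47, 7.36 and 9.40 in knockout and 7.91, 3.27 and 8.77 in control glomeruli (difference 1.76, standard error 1.74). C3ar1, the receptor of the C3a fragment, was at 5.75, 5.75 and 6.42 in knockout and 5.92, 2.82 and 6.31 in control glomeruli (difference 0.96, standard error 1.09). In all of these genes the value of control 2 was in the dim range. Without control 2 the differences were 1.04 for Vsig4, 0.073 for Fcna and -0.14 for C3ar1.

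Clu, the gene of clusterin, a secreted inhibitor of the terminal pathway, was the only 1 of these 13 genes whose groups did not overlap with all 6 arrays, where 13.7% of all probe sets that were not dim did not. It was at 11.35, 11.40 and 11.60 in knockout and 11.74, 12.29 and 11.80 in control glomeruli. The mean was 11.45 ± 0.13 in knockout and 11.94 ± 0.30 in control glomeruli (SD, n = 3 each), so that the difference was -0.49 (standard error 0.18, limma unadjusted p = 0.0512, adjusted p = 1). The highest knockout value lay below the lowest control value. Control 2 had the highest value here, and without it the difference was -0.32. The groups of C1s1 did not overlap either in that comparison (difference -0.19, limma unadjusted p = 0.0255, adjusted p = 0.738), where 32.1% of all probe sets that were not dim did not. With all 6 arrays, the largest fall after Clu was that of the integrin gene Itgam, a subunit of complement receptor 3 (-0.38, standard error 0.50). Without control 2 its difference was -0.56, and its groups overlapped in both comparisons. Serping1, which encodes the C1 inhibitor, differed by 0.11 (standard error 0.051).

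**Figure D4:**
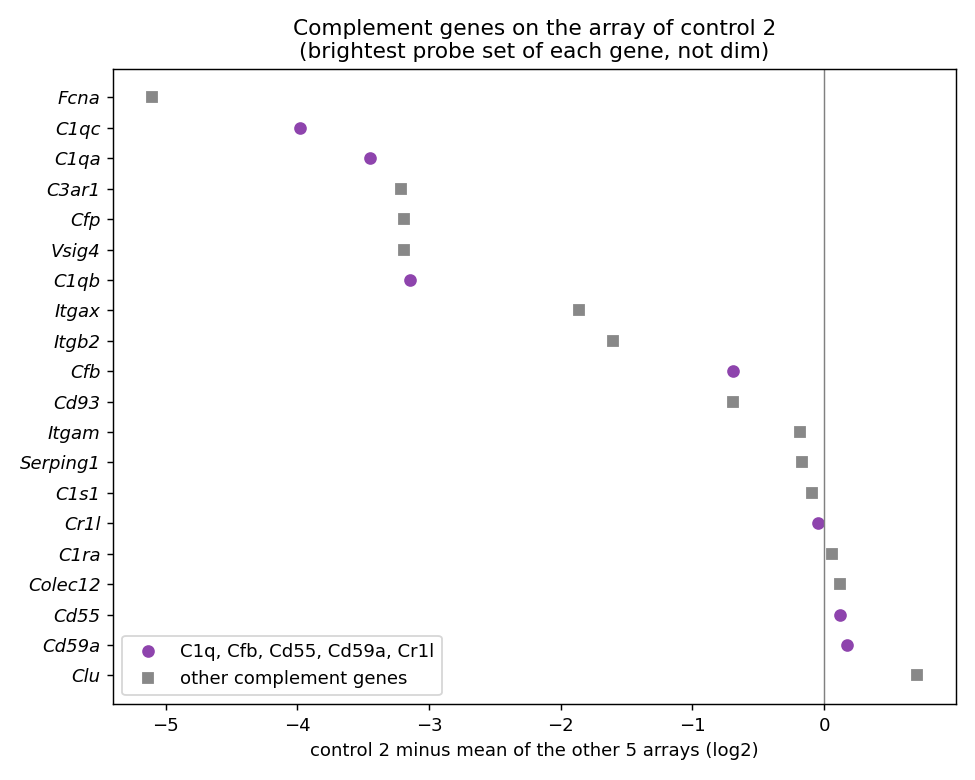
Value of control 2 minus the mean of the other 5 mice (log2, horizontal axis) for 20 complement genes that were not dim, each by its brightest probe set. Fcna (-5.11), C1qc, C1qa, C3ar1, Cfp, Vsig4 and C1qb lie at -3.15 or below, whereas Cd55, Cd59a, Cr1l, C1ra and C1s1 lie between -0.092 and 0.17 and Clu at 0.71.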

How the data were processed

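The authors normalized the Affymetrix whole-genome mouse arrays with GCRMA (version 2.30.0), and the deposited values are log2 intensities of probe sets, quantile normalized between the 6 arrays, which levels any global shift. Values for 45101 probe sets were used as deposited. The array annotation pairs 34958 probe sets with 1 gene, 932 with several and 9211 with none, and only the first kind names a gene here. Of the 9 complement genes, the RefSeq promoter table (GRCm38.p6) held windows for 6. The groups were compared by limma (version 3.58.1, R 4.3.3; lmFit and eBayes, two-sided) on all probe sets without filter or covariate, with a prior of 0.312 and 4 residual degrees of freedom and Benjamini-Hochberg adjustment over all probe sets. SAM, the test named in the methods, was an alternative, because its p values come from only 20 permutations. The procedure was also run on simulated data with independent noise for each probe set and array. Such data hold no shift of many genes together like that of control 2, so the run does not bear on that array.

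Named were all complement probe sets of the rule. For the pathway list, those past the criterion, those without overlap and the 3 largest differences in either direction were named, and for C1q and Cfb, which span over 1 (log2), the 8 nearest genes. Other listed genes were represented by their brightest probe set. The properdin, C1ra and Serping1 values, the Mrc1 values and those of Cp were added after they had been seen. Members and lists were chosen with earlier results of these data known. The number of arrays limits the precision.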

Additional observations from a re-analysis of the deposited data

How the results depend on the processing

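The differences of the 12 probe sets that were not dim kept their direction under all alternatives that held them except the omission of control 2, which turned all 5 of C1q. The dim probe sets of Cr1l differed by 0 and 0.0014 and have no direction to keep. With 1 array left out in turn, the difference ranged from -0.19 to 1.77 for C1qa, from -0.19 to 1.45, -0.15 to 1.72 and -0.24 to 1.36 for the probe sets 1437726_x_at, 1417063_at and 1434366_x_at of C1qb, and from -0.11 to 2.10 for C1qc. The number past the fold and p criterion ranged from 0 to 1, the 1 being Cfb without control 2. Array weights gave a C1q median of 0.43 (log2) and a Cfb difference of -0.47. No call changed with SAM, with a trended robust variance prior, after filtering on a range over 0.1 or on means of log2 4 or 6, with quantile normalization again, an offset of 16 or 1 probe set per gene, which holds 7 of the 14. Median centring added 0.019 to all differences, and with it 2 probe sets had an unadjusted p under 0.05 with limma. Both were the dim probe sets of Cr1l, whose differences of 0.019 and 0.021 after centring came almost wholly from the centring itself. The lowest adjusted p of a complement probe set that was not dim was 0.265 there. Filters left out the 2 dim probe sets of Cr1l. With the replicate number as a block, the C1q median was 0.99 and 0 of 14 passed either criterion. Same-numbered mice correlated at 0.0949, 0.352 and 0.248 across probe sets in their deviations, and the labels name no pairing, so the numbers were not read as pairs. Low signal leaves the 2 dim probe sets of Cr1l uninformative, and the annotation, not signal, kept C3 from being analysed here.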

Other observations

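Of 21 measured genes that interferons or NF-κB induce, 0 passed the fold and p criterion with limma, against 0.18% of all probe sets. The median difference of the 19 that were not dim was 0.088 (log2) with all 6 arrays and -0.044 without control 2. Of these 19, 10 were lowest and 3 highest in control 2. Cxcl10, a chemokine induced by interferon, was at 11.06, 10.06 and 10.61 in knockout and 11.43, 8.36 and 11.60 in control glomeruli. Ccl2, the monocyte chemoattractant, was at 9.32, 7.33 and 7.06 in knockout and 9.30, 3.72 and 9.71 in control glomeruli. Without control 2, Cxcl10 was lower in all 3 knockout mice than in the remaining control mice, by a fitted value of -0.94 (standard error 0.36, limma adjusted p = 0.951). It was 1 of 4 of the 19 genes without overlap in that comparison, where 32.1% of all probe sets that were not dim did not overlap. Cxcl1, another chemokine, was at 9.87, 8.82 and 9.50 in knockout and 8.42, 8.35 and 9.30 in control glomeruli. Socs3, a feedback inhibitor of cytokine signalling, was at 9.86, 9.74 and 11.69 in knockout and 10.23, 11.81 and 10.42 in control glomeruli, with its highest value in control 2. Irf1 was at 9.59, 9.55 and 9.80 in knockout and 9.63, 9.41 and 9.69 in control glomeruli, and Psmb9 at 9.17, 9.20 and 9.11 in knockout and 8.91, 9.09 and 9.27 in control glomeruli. All genes named here were picked after their values were seen.

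The B cell genes that were not dim were highest in control 3. Ms4a1, which encodes CD20, was at 3.36, 3.14 and 4.26 in knockout and 4.04, 3.88 and 5.73 in control glomeruli, and Cd79b at 4.94, 4.90 and 5.35 in knockout and 5.58, 5.35 and 6.67 in control glomeruli. The values of Cd79b did not overlap between the groups, as for 13.7% of all probe sets that were not dim, whereas those of Ms4a1 did. For Cd79b, knockout 3 and control 2 were equal to 2 decimals, and the limma adjusted p was 1 for both genes.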
